A study of Mus musculus with 6 samples.

Results

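The genes described here are 10 matrix and tendon genes of the mouse, followed through the cells of the fracture callus. They are the thrombospondins Thbs1, Thbs2, Thbs3, Thbs4 and Comp, the tenascins Tnc, Tnn and Tnxb, and the tendon genes Tnmd and Scx. They were chosen by symbol, all 10 were found among the 52081 gene identifiers that the 6 libraries share, and the set was proposed with earlier results of these data known. The cells came from femoral fracture calluses of 12-week-old mice, which the study describes as male, at 14 days after fracture (dpf). There were 3 control libraries (Piezo1 f/f, labelled wt) and 3 libraries labelled knockout (Piezo1 Col2a1), and tamoxifen (75 mg/kg) is described as given to both groups on 5 days in a row, starting at day 5. In the knockout the recombinase CreERT is driven by the Col2a1 promoter, so that deletion of the mechanically gated channel Piezo1 is directed at cells that use this cartilage promoter, and not at tendon or bone cells as such. The sample labels of the knockout write Piezo3 where the series text writes Piezo1, and the genotypes are taken from the latter and from the study's methods. The numbers of mice given in the study's results and methods differ, and no source says from which or how many animals a library came. P-values therefore measure the spread between these 6 libraries, which may be technical.

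Thrombospondins are calcium-binding glycoproteins that cells secrete into the matrix, where they bind collagens, integrins and growth factors. Thbs1 and Thbs2 are known as inhibitors of blood vessel growth, and Thbs1 also as an activator of latent TGF-beta. Comp, or cartilage oligomeric matrix protein, belongs to cartilage, tendon and ligament, and Thbs4 to tendon and muscle. Tenascins are large glycoproteins that loosen the adhesion of cells to the matrix: Tnc is found in embryonic, injured and loaded tissue, Tnn (tenascin-W) in periosteum and bone, and Tnxb (tenascin-X) in loose connective tissue, where it orders collagen fibrils. Scx is a transcription factor of tendon progenitors, a basic helix-loop-helix protein that binds E-boxes, and Tnmd is a membrane glycoprotein of mature tendon cells.

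In the reference annotation (GENCODE M21 on GRCm38), the members lie on 9 chromosomes. Thbs4 is at chr13:92751590-92794818 on the minus strand, Tnmd at chrX:133850980-133865577 and Comp at chr8:70373558-70382066, both on the plus strand, and Tnc at chr4:63959785-64047015 on the minus strand. Thbs2 (chr17:14665500-14694235, minus) and Tnxb (chr17:34670535-34719815, plus) share a chromosome. Scx, at chr15:76457452-76459458 on the plus strand, overlaps Bop1 on the other strand. Thbs1, Thbs3, Tnc and Tnxb also overlap genes on the opposite strand, and none of the 10 overlaps a gene on its own strand. Thbs4 and Tnmd, which were high together in tendon-like cells, are shown with the stretch just before their start, as RefSeq gives it on GRCm38.p6, written 5′ to 3′ on the gene's strand. Capitals mark E-boxes, searched as CANNTG, whose letters read the same on both strands.
Thbs4, 250 bases at chr13:92794819-92795068, minus strand: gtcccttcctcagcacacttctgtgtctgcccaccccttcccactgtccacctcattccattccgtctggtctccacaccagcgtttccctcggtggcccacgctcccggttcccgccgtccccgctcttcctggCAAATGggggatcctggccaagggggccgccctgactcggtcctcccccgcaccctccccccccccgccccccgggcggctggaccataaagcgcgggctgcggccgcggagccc
Tnmd, 222 bases at chrX:133850758-133850979, plus strand: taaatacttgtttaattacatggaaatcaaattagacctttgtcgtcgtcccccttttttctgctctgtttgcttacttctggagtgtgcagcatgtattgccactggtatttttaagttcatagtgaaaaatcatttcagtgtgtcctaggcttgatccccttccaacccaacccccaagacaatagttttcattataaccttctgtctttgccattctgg
The Thbs4 stretch holds 1 E-box (CAAATG, 115 bases before the start) and the Tnmd stretch none. Of the first 250 bases of each of the 32851 mouse promoters in the same table, 66.2% hold at least 1 E-box, and the Tnmd stretch is shorter because it was ended at the annotated start of the gene. Promoters were given for 7 of the 10 members, and Thbs1, Comp and Scx were not among them. These matches are letters in a window and were not tested for binding.

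The 46944 barcodes of the 6 libraries held 57626530 to 103784364 UMIs (unique molecular identifiers, each standing for 1 captured transcript) per library, and 41652 cells were used, 3068 to 10025 per library. Any pair of libraries shared 4 to 36 barcodes. Levels are given as UPM, the UMIs of a gene per 1000000 UMIs of the same class and library. They are used to compare classes for 1 gene and not to compare the expression of genes with each other. Cells were sorted by clustering into marker-defined classes, with no member among the genes that drew the clusters, and classes are called "-like" because they were named here from marker genes. About 40% of the cells of replicate 1 of both groups fell into stromal clusters with few UMIs per cell, which were given no class. Knockout library 3 held Xist at 578 UPM and almost no Y chromosome transcripts, which goes against the description of the mice as male, and genotype results are also given without it. Piezo1 stood at 56.4 to 62.3 UPM in the control and at 45.4 to 95.5 in the knockout libraries, and counts of transcript 3′ ends do not check a deletion of internal exons.

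The members had their highest mean levels in 5 classes, among the 21 classes with at least 3 libraries of 10 or more cells (heat map of class means). Thbs4, Tnmd and Scx were highest in tendon-like cells, Comp in chondrocyte-like cells, Tnc in osteoprogenitor-like cells, Thbs2 and Tnn in periosteal-like cells, and Tnxb and Thbs3 in progenitor fibroblast-like cells. Thbs1 had means of 1079 UPM in tendon-like cells (n = 5) and 1075 in monocyte-like cells (n = 6), which did not differ beyond the spread. All 10 highest classes were the same without control 1, control 2, knockout 1 or knockout 3. The highest class of Thbs1 became monocyte-like without control 3 or knockout 2, and that of Thbs3 chondrocyte-like without knockout 2.

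**Figure D1:**
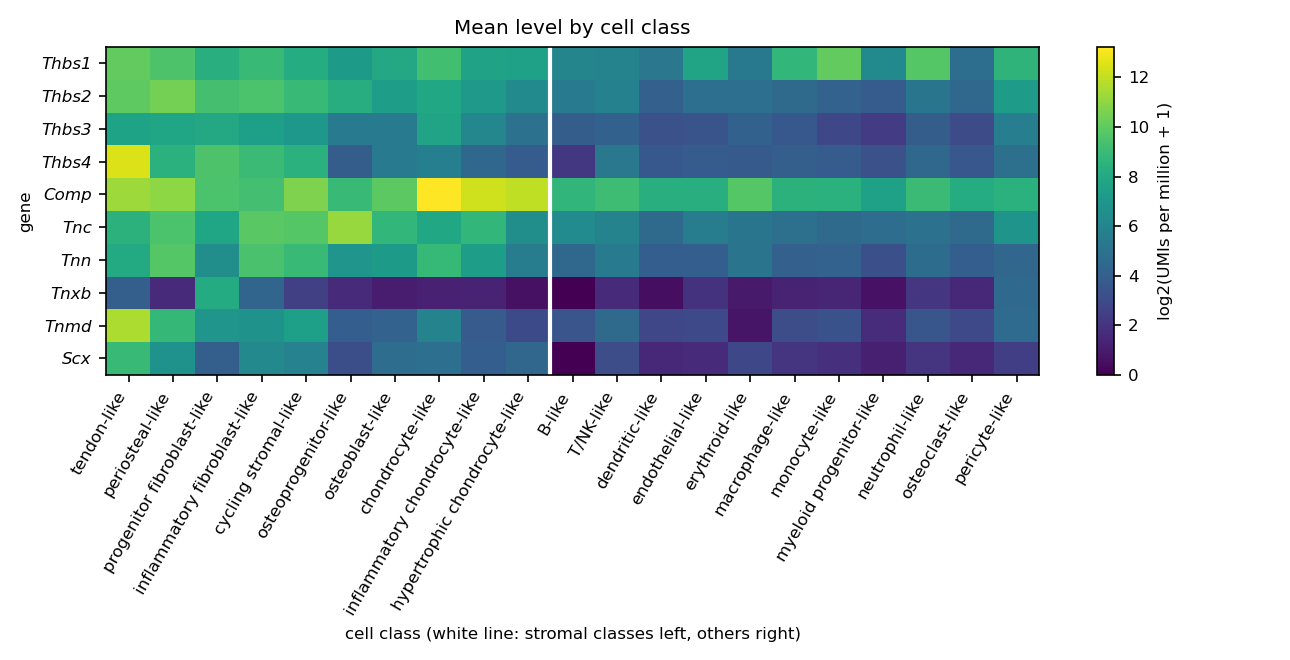
Mean level of each gene (rows) in 21 cell classes (columns), as log2(UPM + 1) averaged over libraries with at least 10 cells of the class. Read along a row: Thbs4 peaks in tendon-like cells at a mean of 5931 UPM and Comp in chondrocyte-like cells at 9614. Thbs1 is also high to the right of the white line, in monocyte-like and neutrophil-like cells. Comp too has UMIs there, with a mean of up to 863 UPM in erythroid-like cells.

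Tendon-like cells were a small class of 396 cells, named from markers that include Kera, Mkx and Fmod, and Thbs4 was the member that stood out most in it. All 7 naming markers were detected in each of the 5 libraries with at least 10 such cells, and 10 skeletal muscle genes summed to at most 11 UPM there. The study gave the name myoblast to its stromal subcluster marked by Tnmd and Thbs4, and its cells were not matched to this class here. Thbs4 was at 6654, 7688 and 2433 UPM in the 3 control libraries, and at 7330 and 5548 in knockout 1 and 3. Knockout library 2 held 5 such cells and was left out of this class. The next class, progenitor fibroblast-like, held 746 ± 396 UPM (SD, n = 6), and the difference on the log2 scale was 3.24 ± 0.83 over the 5 libraries and in the same direction in each. From periosteal-like (347 ± 200) to chondrocyte-like cells (51.0 ± 21.4) Thbs4 dropped again in 6 of 6 libraries. The 396 tendon-like cells supplied 42.5% of all 93605 Thbs4 UMIs of the callus.

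Tnmd followed Thbs4 closely. Its level in tendon-like cells was 3049, 3037 and 2059 UPM in the controls and 3197 and 4002 in the knockout libraries. Periosteal-like cells came next at 453 ± 259 UPM (SD, n = 6), lower by 2.61 ± 0.35 on the log2 scale and in all 5 libraries, and 34.6% of the Tnmd UMIs came from these more numerous cells. Every other class with at least 3 libraries had a mean of at most 177 UPM. In single tendon-like cells detection was near complete, with a Thbs4 UMI in 395 of 396 cells and a Tnmd UMI in 391, so that it tells nothing about co-occurrence.

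Scx had fewer UMIs than Thbs4 and Tnmd and was more widely spread. Tendon-like cells held 488, 727, 404, 199 and 627 UPM in control 1 to 3 and knockout 1 and 3, periosteal-like cells 111 ± 50 (SD, n = 6) and inflammatory fibroblast-like cells 75.2 ± 85.0. The step from tendon-like to periosteal-like was 2.00 ± 0.74 on the log2 scale and in the same direction in 5 of 5 libraries. Scx was found in 348 of 396 tendon-like cells. Shares of cells depend on depth, and droplets can also hold free RNA. With every cell thinned to 1000 UMIs, 92.3% of tendon-like cells held Thbs4, 86.1% Tnmd and 34.4% Scx (means of 5 libraries), against 2.44%, 1.21% and 0.318% of neutrophil-like cells. Unthinned, the shares were 99.7%, 99.3% and 88.2% at a median of 11130 UMIs per tendon-like cell, and 9.39%, 5.55% and 1.16% at 2839.5 UMIs per neutrophil-like cell. Thinning left out 367 control and 74 knockout neutrophil-like cells and no tendon-like cell.

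**Figure D2:**
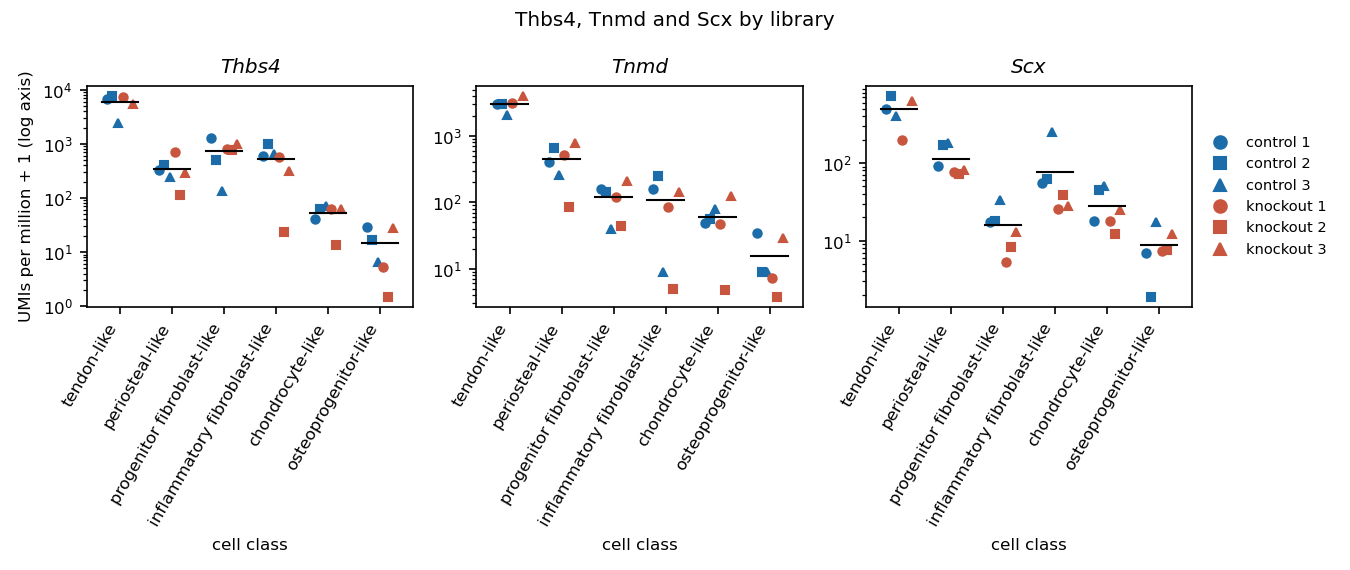
Level of Thbs4, Tnmd and Scx in 6 stromal classes, as UPM + 1 on a log axis. Each point is 1 library (blue control, red knockout, shape by replicate) and each bar the mean over libraries. Tendon-like cells lie above every other class for Thbs4 and Tnmd in each library shown, with Tnmd from 2059 to 4002 UPM, and the knockout 2 square is often the lowest point.

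Summed per library and tested against all other stromal-like cells of the same 5 libraries, 5 members were higher in tendon-like cells and 2 lower, where 22.3% of the 14228 genes tested passed in either direction, 10.4% higher and 11.9% lower (edgeR quasi-likelihood test with the library as a block, Benjamini-Hochberg adjusted p under 0.05). Tnmd was higher by 4.35 ± 0.19 on the log2 scale (SE, adjusted p = 6.04e-10), Thbs4 by 4.59 ± 0.33 (adjusted p = 9.76e-08) and Scx by 3.22 ± 0.33 (adjusted p = 2.93e-06), each in 5 of 5 libraries. Thbs1 (0.94 ± 0.21) and Thbs2 (0.72 ± 0.15) were higher by less. Tnn was lower by 1.5 ± 0.23 in 5 of 5 libraries, and Comp was lower by 1.02 ± 0.27 than in the other stromal-like cells, which include the chondrocyte-like cells. Thbs3, Tnxb and Tnc did not pass, with Tnc at -0.51 ± 0.20. The classes were drawn with other genes of the same cells, so that these p-values measure how steady a difference was over libraries. The call for Comp was lost without knockout library 3 (adjusted p = 0.0503) and with the members kept for clustering (0.116). Tnc became called without control library 1 (-0.77, adjusted p = 0.00322), without replicate 1 of both groups (0.0453), without the filter on low counts (0.0097) and with the members kept for clustering (0.0469).

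Other tendon genes were described with the same fit. Of 9 transcription factors tied to tendon, none of which had drawn the clusters, 5 were higher in tendon-like cells and none lower. Six2, a homeobox factor, was higher by 4.21 ± 0.30 on the log2 scale, and its partners Eya2 and Eya1 by 2.22 ± 0.18 and 1.63 ± 0.39. Mkx, also among the 5, was a naming marker and is no result. Of 8 genes of TGF-beta signalling, which maintains tendon cells, 4 were higher, among them Tgfb3 (1.16 ± 0.15) and the receptors Tgfbr1 (1.2 ± 0.17) and Tgfbr2 (1.12 ± 0.20), and Tgfb1 was lower (-1.01 ± 0.18). Of 17 fibrous matrix genes 7 were higher and 1 lower, and of 10 other matricellular genes 3 were higher and 3 lower. Among 12 tested receptors and partners of thrombospondins, the calcium channel subunit Cacna2d1, which Thbs1 binds, was higher by 1.64 ± 0.18, while the syndecan Sdc4 (-2.15 ± 0.17) and the integrin chain Itgb3 (-1.54 ± 0.29) were lower. Of 11 tested tenascin receptors 5 were higher and 4 lower, with the integrin chains Itga8 at 3.21 ± 0.37 and Itga2 at 2.79 ± 0.28. Of these lists, 8 fibrous matrix, 7 matricellular, 3 tenascin receptor, 2 TGF-beta and 1 thrombospondin receptor genes had helped to draw the stromal clusters. The counts from these lists are therefore only a description. Over all 14228 genes tested, 10.4% were higher and 11.9% lower.

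Comp belonged to cartilage. Chondrocyte-like cells held 9807, 9269 and 9282 UPM in the 3 control and 9401, 7791 and 12136 in the 3 knockout libraries, and they supplied 68.1% of all 1209729 Comp UMIs. Inflammatory chondrocyte-like (4941 ± 2890, SD, n = 6) and hypertrophic chondrocyte-like cells (3985 ± 1506) came next and did not differ beyond their spread. Tendon-like (2506 ± 834, n = 5) and periosteal-like cells (2034 ± 873, n = 6) followed, again without a difference beyond the spread. Comp UMIs were also found in cells far from cartilage. At 1000 UMIs per cell, 38.0% of neutrophil-like cells held a Comp UMI, against 91.4% of chondrocyte-like cells. In classes outside the stroma with at least 3 libraries, the mean Comp level ran from 191 UPM (myeloid progenitor-like) to 863 UPM (erythroid-like). Free RNA was not measured here, and Comp levels outside the stroma are not read as expression. Unthinned, the shares were 62.7% and 97.4%, at median depths of 2839.5 and 18453 UMIs.

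Against other stromal-like cells, 1 member was higher in the summed cartilage-like cells and 7 were lower, where 36.9% of 15998 genes passed, 17.5% higher and 19.4% lower. Comp was higher by 3.14 ± 0.34 on the log2 scale (SE, edgeR adjusted p = 0.000137) in 6 of 6 libraries. The strongest differences downwards were those of Tnxb (-4.03 ± 0.31), Thbs4 (-3.58 ± 0.33) and Tnmd (-2.54 ± 0.41), followed by Scx, Tnc, Thbs2 and Tnn. Thbs1 (0.05 ± 0.24) and Thbs3 (0.28 ± 0.16) did not pass. Tnn, at -0.40 ± 0.12, kept its call in 9 of 17 alternatives and lost it without control library 1 (adjusted p = 0.0904), control library 2 (0.0673) or knockout library 1 (0.0758). Of 13 cartilage partners of Comp, 12 were higher, but 11 of the 13 had helped to draw the stromal clusters, so that this count is only a description.

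Within the cartilage, 2 clusters of chondrocyte-like cells differed in several of the other members. Ucma, a gene of immature cartilage, led 1 of them and was also among the leading genes of the other, which Mia led. The Ucma-led cluster held more Tnc than the Mia-led cluster, at 372 ± 234 against 63.6 ± 53.5 UPM (SD, n = 6), a log2 difference of 2.71 ± 0.57 and higher in 6 of 6 libraries. Thbs2 (335 against 86.9 UPM), Tnn (619 against 190), Thbs4 and Scx were likewise higher in 6 of 6 libraries, and Thbs3 and Tnmd in 5 of 6. Thbs1 (0.08 ± 0.82 on the log2 scale) and Tnxb (0.24 ± 0.46) did not differ beyond their spread. Comp went the other way in 6 of 6 libraries, at 7612 ± 3234 in the Ucma-led and 12264 ± 922 in the Mia-led cluster, but its log2 difference of -0.87 ± 1.01 was within its spread.

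Tnc was highest in osteoprogenitor-like cells. Osteoprogenitor-like cells held 2559, 3430 and 2803 UPM in the 3 control and 1925, 2087 and 1011 in the 3 knockout libraries, in the order of their numbers. Inflammatory fibroblast-like cells (933 ± 341, SD, n = 6), cycling stromal-like cells (861 ± 158) and periosteal-like cells (727 ± 204) formed the next level, and these neighbours did not differ beyond their spread. The step from osteoprogenitor-like to inflammatory fibroblast-like cells was 1.30 ± 0.48 on the log2 scale, in 6 of 6 libraries. Inside the lineage Tnc fell from 2302 ± 830 UPM in osteoprogenitor-like cells to 575 ± 333 in the osteoblast-like cluster led by Bglap, which encodes osteocalcin, and to 82.2 ± 38.6 in the osteoblast-like cluster led by Dmp1, a gene of cells that become osteocytes. Each of these steps had the same direction in 6 of 6 libraries, with log2 differences of 2.09 ± 0.57 and 2.94 ± 1.93.

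No other member was higher in the lineage. Against other stromal-like cells, Tnc was higher in the summed osteoblast lineage by 1.26 ± 0.29 on the log2 scale (SE, edgeR adjusted p = 0.0126, higher in 5 of 6 libraries) and the other 9 members were lower, from Thbs1 at -1.25 ± 0.24 to Tnxb at -4.15 ± 0.46, where 24.2% of 15297 genes passed, 11.2% higher and 13% lower. The call for Tnc was lost without replicate 1 of both groups (adjusted p = 0.0991), without replicate 3 of both (0.116), and with stricter cells, where no cluster was named osteoprogenitor-like and the difference was 0.04 (adjusted p = 0.932). With stricter cells or without integration the differences of Thbs1 (-0.54 and -0.64) and Tnn (-0.51 and -0.95) were not called either, nor was that of Comp without integration (-0.60, adjusted p = 0.294). The call for Scx, lower by 1.60 ± 0.48 (adjusted p = 0.0394), was kept in 6 of 17 alternatives. Of 11 tested tenascin receptors 4 were higher in this lineage, and 3 genes of this list had helped to draw the stromal clusters. Ptprz1, a receptor-type phosphatase that binds Tnc, was higher by 5.35 ± 0.60, and the integrin chains Itga9 and Itga2 by 1.86 ± 0.41 and 1.35 ± 0.30. Ptprz1 was among the leading genes of the Dmp1-led cluster, where Tnc was lower than in osteoprogenitor-like cells. It was not among the leading genes of the osteoprogenitor-like cluster.

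**Figure D3:**
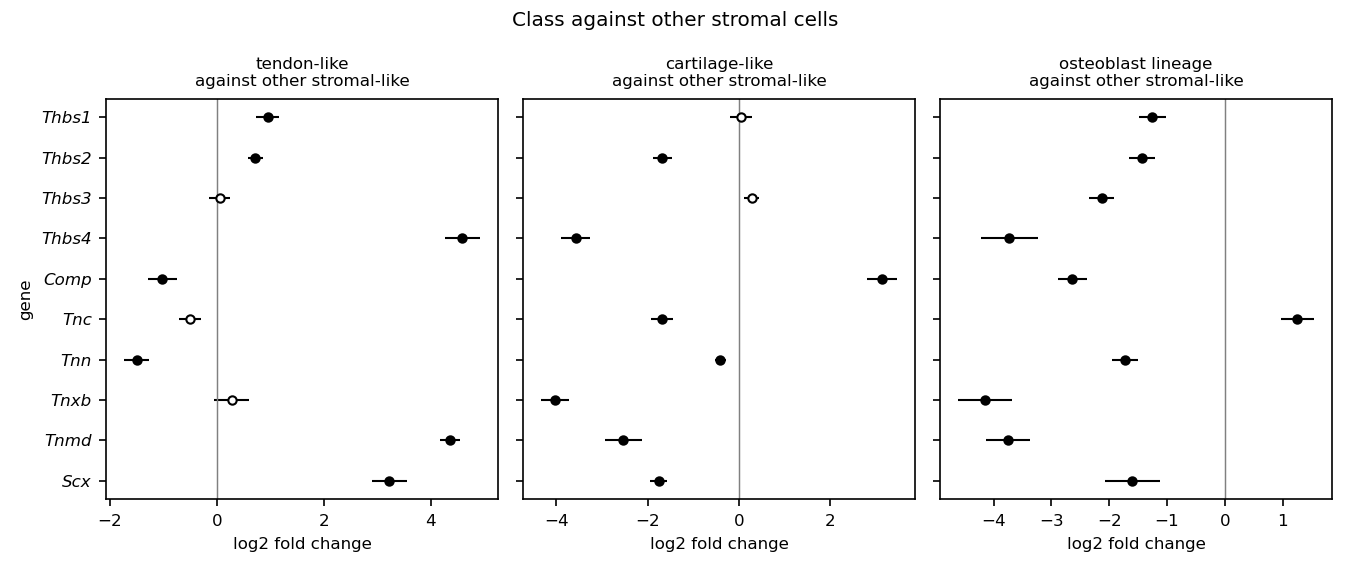
Log2 fold change of each gene in tendon-like cells (5 libraries), cartilage-like cells and the osteoblast lineage (6 libraries each) against all other stromal-like cells, with bars of 1 SE. Filled points passed an adjusted p of 0.05 and open points did not. Thbs4 and Tnmd lie above 4 in the left panel, Comp is the filled point to the right of 0 in the middle panel, and Tnc the only point to the right of 0 in the right panel.

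Thbs2 and Tnn shared the periosteal-like cells. Thbs2 was at 1799, 1756 and 1614 UPM in the control and 1634, 780 and 1042 in the knockout libraries there, followed by tendon-like cells (981 ± 259, SD, n = 5), lower by 0.70 ± 0.26 on the log2 scale in 5 of 5 libraries, and by inflammatory fibroblast-like cells (723 ± 211, n = 6). Periosteal-like cells supplied 42.7% of the 131554 Thbs2 UMIs. Tnn was at 1222, 759 and 1132 UPM in the control and 1367, 223 and 462 in the knockout libraries, with knockout 2 lowest. Inflammatory fibroblast-like cells held 693 ± 479 UPM of Tnn (n = 6), which did not differ beyond the spread (0.36 ± 0.50 on the log2 scale), and this order turned when replicate 1 of both groups was left out. Of the tendon-like cells, 108 of 396 held a Tnn UMI.

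Thbs3 was spread over several stromal classes. Progenitor fibroblast-like (253 ± 84.7 UPM, SD, n = 6), periosteal-like (220 ± 69.1), chondrocyte-like (213 ± 114), tendon-like (202 ± 79.9, n = 5) and inflammatory fibroblast-like cells (178 ± 63.3) did not differ beyond the spread from one rank to the next. The first step beyond it came between cycling stromal-like (130 ± 68.8) and inflammatory chondrocyte-like cells (69.4 ± 50.1).

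Tnxb was the member with the fewest UMIs, 4724 in all, and 70.3% of them came from progenitor fibroblast-like cells, whose markers include Pi16 and Clec3b. Its level there was 581, 235 and 20 UPM in the 3 control and 118, 536 and 195 in the 3 knockout libraries, a range that spans both groups. Within the class, the cluster led by Clec3b held 292 ± 237 UPM and the cluster led by the interferon-induced gene Ifit1 74.1 ± 100 (4 libraries, higher in the first in 4 of 4). Pericyte-like cells were the next class at 21.8 ± 11.7 UPM (n = 6), lower by 3.15 ± 1.93 on the log2 scale (SD) and in 5 of 6 libraries. No other class with at least 3 libraries had a mean above 18.7 UPM. Classes with fewer libraries of 10 or more cells held 47.4 and 26.6 UPM (skeletal muscle-like, control 1 and knockout 3) and 43.4 UPM (Schwann-like, control 2).

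Thbs1 was also high outside the stroma. Tendon-like cells held 1459, 1475, 585, 1033 and 843 UPM (control 1 to 3, knockout 1 and 3), monocyte-like cells 1807, 1750 and 319 in the control and 1288, 72.9 and 1215 in the knockout libraries, and neutrophil-like cells 1077, 811, 429, 1553, 95.7 and 1218 in the same order. These classes did not differ beyond their spread. Over the same 5 libraries monocyte-like cells held 1276 ± 597 UPM (SD) and tendon-like cells 1079 ± 388, with the former higher in 4 of 5. Knockout library 2 was lowest in both myeloid classes. T/NK-like cells held 7.62 to 110 UPM and osteoclast-like cells, another myeloid class, 8.83 to 47.9. Within each of the 6 libraries monocyte-like cells stood above T/NK-like cells, by 3.84 ± 1.02 on the log2 scale (SD), and neutrophil-like cells by 3.71 ± 0.62. The ratio of Thbs1 to Comp UMIs was 1.53 to 7.94 in monocyte-like and 1.28 to 5.31 in neutrophil-like cells, against 0.0545 to 0.667 in T/NK-like cells and 0.0522 to 0.633 in osteoclast-like cells. The part of free RNA in these levels was not tested. Macrophage-like cells ranged from 14.4 to 1338 UPM, with both ends of the range in knockout libraries.

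**Figure D4:**
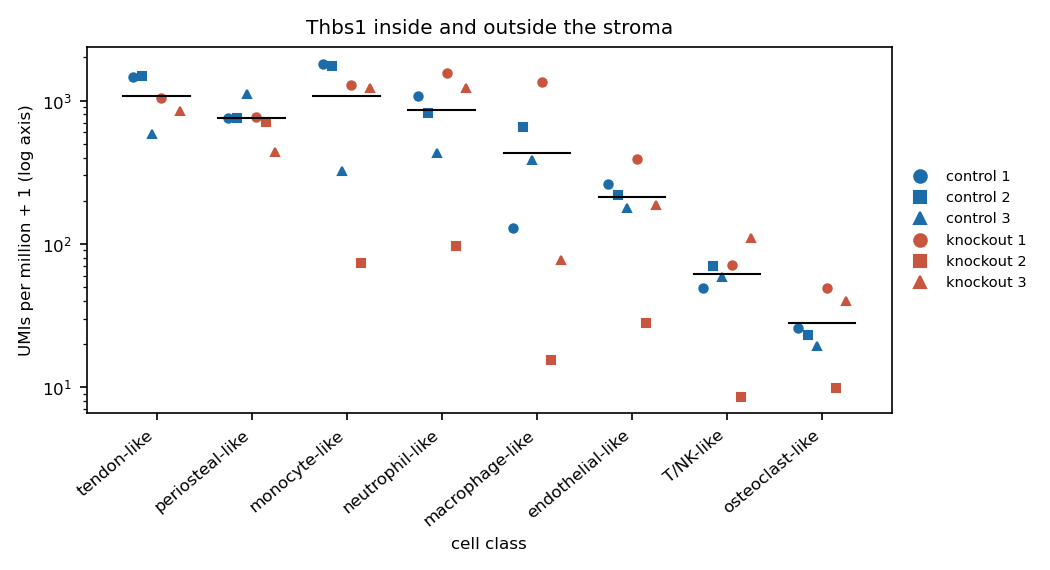
Thbs1 in 8 cell classes, as UPM + 1 on a log axis, with 1 point per library (blue control, red knockout, shape by replicate) and bars for the means. Monocyte-like and neutrophil-like cells overlap tendon-like cells, while T/NK-like and osteoclast-like cells stay at or below 110 UPM.

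Pericyte-like cells, the mural cells of small vessels, held less of 9 members than the stromal-like cells, where 42.5% of 14893 genes passed, 19.4% higher and 23% lower. The differences ran from -0.75 ± 0.20 on the log2 scale for Thbs1 to -4.90 ± 0.40 for Tnn. Tnxb was not called (0.88 ± 0.48, edgeR adjusted p = 0.169). Of 12 tested thrombospondin receptors and partners 6 were higher and 4 lower in these cells, and of 11 tenascin receptors 4 were higher and 4 lower. In each of these lists, 1 gene had helped to draw the clusters of all cells. The thrombospondin receptor Cd36 was higher by 3.57 ± 0.26, and the tenascin-binding integrin chains Itga8 and Itga7 by 4.11 ± 0.37 and 4.73 ± 0.23, while Sdc4 (-2.63 ± 0.25) and Ptprz1 (-3.67 ± 0.32) were lower.

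Across the 21 classes, each member's mean levels were set beside those of the 10664 genes with enough UMIs, as a description (Pearson's r of log2 levels, 21 points that share 6 libraries). Thbs2 was most like Postn (r = 0.984) and Igsf10 (0.980), Thbs3 like Matn2 (0.972) and Col3a1 (0.969), Thbs4 like Angptl1 (0.958) and Abi3bp (0.955), and Tnmd like Scube2 (0.954) and Abi3bp (0.947). Comp was most like the cartilage genes Chadl (0.957) and Acan (0.949), Scx like Mkx (0.964) and Fmod (0.939), both of them markers that named the tendon-like cells, Tnc like Slit2 (0.955) and Cdh11 (0.950), Tnn like Lum (0.941) and Col12a1 (0.938), Tnxb like Hmcn2 (0.913) and Vegfd (0.886), and Thbs1, least well matched, like Lamp2 (0.833) and Tmem43 (0.820). Postn was likewise a marker that named the periosteal-like cells. Acan was one for chondrocyte-like and stromal-like cells, and Col3a1 and Lum were markers of stromal-like cells. Matches with such naming markers are no independent result. Among the members, Thbs2 and Thbs3 (r = 0.965) and Thbs4 and Tnmd (0.934) were the closest pairs.

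The comparison of the genotype labels asks whether the members moved in the callus of mice labelled knockout. In stromal-like cells, summed per library and tested with edgeR, none of the 10 members passed an adjusted p of 0.05, and neither did any other gene (0% of 17915, with 1.32% at an unadjusted p under 0.05, and 0 genes by DESeq2). Scx came nearest. It was at 51.6, 136 and 141 UPM in the 3 control and at 31.6, 25.1 and 42.9 in the 3 knockout libraries. The groups did not overlap, but the share of all genes without overlap was not counted. The fold change was -1.64 ± 0.45 on the log2 scale (SE, unadjusted p = 0.00749 and adjusted p = 1.00 in edgeR). The sign was the same in all 18 alternatives, with an adjusted p of at least 0.404, and without knockout library 3 the value was -1.93 ± 0.52. Without knockout 2, Thbs1 moved from -0.70 to -0.33, Thbs2 from -0.90 to -0.50, Thbs3 from -0.53 to -0.04, Thbs4 from -1.25 to -0.73, Tnn from -1.12 to -0.65 and Tnmd from -0.73 to -0.16. The median fold change of the 10 members was -0.81, and ran from -1.12 without knockout 1 to -0.58 without knockout 2. Over all genes tested the median was 0.00, and the scaling of libraries in the fit places most genes near 0. The members also vary together across classes, so that their median is a description and not a test of the 10 as a set. Knockout library 2 was the lowest library for 8 of the 10 members, and the share of all genes that were lowest there was not counted. In that library Thbs4 was at 29.0 UPM against 448 and 232 in knockout libraries 1 and 3, and Comp at 299.6 against 4529 and 7070.

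Those sums mix classes, and the libraries differ in their makeup. Knockout library 2 held 5 tendon-like and 41 chondrocyte-like cells but 709 osteoprogenitor-like and 1451 osteoblast-like cells, so fewer cells of a class and less RNA per cell cannot be told apart in the sums. The sums of macrophage markers did not overlap between the labels in several classes, and the share of all genes without overlap was not counted. The 6 listed macrophage markers summed to 25.9 to 41.2 UPM in the stromal-like cells of the control and 70.7 to 148 in those of the knockout libraries, and to 23.5 to 41.6 against 72.9 to 163 in the fibroblast classes and 22.9 to 49.8 against 79.3 to 143 in the osteoblast lineage. They summed to 27.2 to 39.9 against 68.2 to 137 in cartilage-like cells. In tendon-like cells the groups overlapped, at 28.0 to 80.7 UPM in the control libraries against 66.4 and 77.2 in knockout 1 and 3. Neutrophil markers (68.2 to 729 against 190 to 962 UPM) and erythroid markers (0.965 to 194 against 8.64 to 87.7) overlapped between the labels in stromal-like cells. So did the skeletal muscle and hypertrophic cartilage markers. The part of these markers in the results was not tested.

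Next, sums of fewer classes were compared. A lack of overlap between the groups is only a description here. Its share over all genes, or over all pairs of member and class, was not counted. The pairs given next are a selection from all members in all classes compared. Their unadjusted p-values do not account for this choice, and among so many pairs some can separate by chance. Scx in the summed fibroblast classes was at 66.9, 141 and 216 UPM in the control and 43.7, 49.5 and 63.5 in the knockout libraries, again without overlap (-1.51 ± 0.46 on the log2 scale, unadjusted p = 0.0106, adjusted p = 1.00 in edgeR, and 0% of 14606 genes called, with -1.72 without knockout 3). The fibroblast classes summed here differ in Scx, with means of 111 UPM in periosteal-like, 75.2 in inflammatory and 14.8 in progenitor fibroblast-like cells. Inflammatory fibroblast-like cells numbered 38, 38 and 746 in the control and 167, 74 and 58 in the knockout libraries. Makeup and level therefore cannot be told apart in this sum. In tendon-like cells, where Scx is highest, the groups overlapped (-0.37 ± 0.50, and -1.46 without knockout 3, which leaves 1 knockout library). Tnc in the osteoblast lineage was at 932, 2297 and 1879 UPM in the control and 852, 683 and 462 in the knockout libraries, without overlap (-1.14 ± 0.39, unadjusted p = 0.0169, adjusted p = 0.520 in edgeR, 0% of 11906 genes called, with -0.95 without knockout 3). Osteoprogenitor-like cells made up 40.9%, 63.8% and 65.8% of these cells in the control and 40%, 32.8% and 33% in the knockout libraries, so that makeup and level cannot be told apart in this sum. In osteoprogenitor-like cells alone the groups did not overlap either (2559 to 3430 against 1011 to 2087 UPM), and in osteoblast-like cells they did (237 to 780 against 250 to 362 UPM), and neither was tested. In tendon-like cells, with 3 libraries against 2, Tnc was at 532, 314 and 535 UPM against 219 and 186 (-1.16 ± 0.40, unadjusted p = 0.0138, adjusted p = 1.00 in edgeR, 0% of 10089 genes called), and the difference was -1.04 without knockout 3, which leaves 16 cells of 1 knockout library. Tnxb in pericyte-like cells was at 42.0, 26.7 and 20.9 UPM against 19.8, 8.50 and 13.2 (-1.0 ± 0.37, unadjusted p = 0.0209, adjusted p = 0.950 in edgeR, 0% of 10880 genes called, with -1.01 without knockout 3).

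Within tendon-like cells, Tnmd differed by 0.42 ± 0.41 and Thbs4 by 0.20 ± 0.51 on the log2 scale, neither past an unadjusted p of 0.05. Without knockout 3, which leaves 16 cells of 1 knockout library, the differences were 0.23 and 0.37. Comp in cartilage-like cells, the cells at which the deletion is directed, differed by -0.03 ± 0.49 (edgeR adjusted p = 1.00, 0% of 14766 genes called, with -0.39 without knockout 3). The cartilage-like sum mixes classes that differ in Comp level. Chondrocyte-like cells numbered 515, 515 and 562 in the control and 314, 41 and 1348 in the knockout libraries. Hypertrophic chondrocyte-like cells numbered 107, 14 and 18 against 50, 26 and 438, so makeup and level cannot be told apart in that sum. No member passed in endothelial-like or macrophage-like cells (0% of 13873 and of 12621 genes called). Over these 8 classes edgeR called no gene, with 201 to 1139 genes at an unadjusted p under 0.05 (1.47% in cartilage-like cells, 9.57% in the osteoblast lineage, 1.73% in the fibroblast classes, 4.18% in tendon-like, 4.32% in pericyte-like, 5.56% in endothelial-like and 1.59% in macrophage-like cells), while DESeq2 called 42 genes in the osteoblast lineage, 4 in endothelial-like, 3 in macrophage-like and 1 in the fibroblast classes, none of them a member. Without the filter on low counts edgeR called 280 genes in the osteoblast lineage, 114 in endothelial-like, 87 in pericyte-like, 73 in tendon-like, 29 in the fibroblast classes, 27 in cartilage-like, 6 in macrophage-like and 0 in stromal-like cells. With the filter, edgeR called 90 genes in tendon-like cells with the replicate block, 39 without integration and 12 without control 2. The block fit of tendon-like cells rested on replicates 1 and 3 alone, since control 2 had no knockout 2 library beside it. In pericyte-like cells edgeR called 30 genes without replicate 1 of both groups, with 26 in the osteoblast lineage without control 1, and 1 in macrophage-like cells without knockout 2. Counts from fits of tendon-like cells that left 1 knockout library are not given. Whether a genotype difference itself differed between a class and the other stromal-like cells was tested for cartilage-like cells, tendon-like cells and the osteoblast lineage. No member passed, where 0 of 15998 genes passed in cartilage-like cells, 2 of 14228 in tendon-like cells and 0 of 15297 in the osteoblast lineage. The nearest was Scx in the osteoblast lineage (2.33 ± 0.55, unadjusted p = 0.00267, adjusted p = 0.690 in edgeR).

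**Figure D5:**
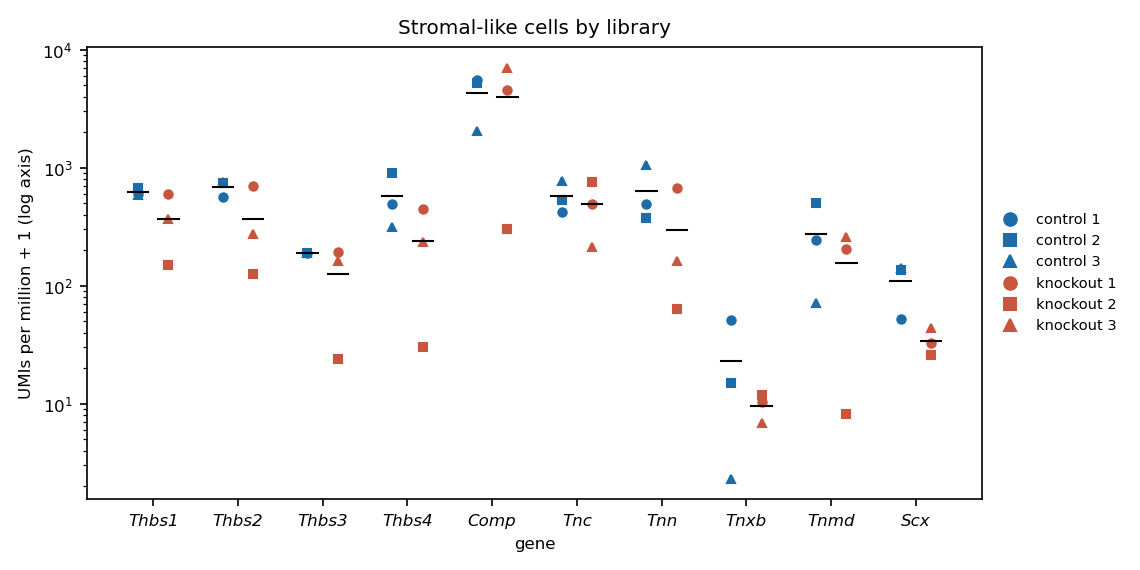
Level of the 10 genes in the summed stromal-like cells, as UPM + 1 on a log axis, with control libraries (blue) left and knockout libraries (red) right for each gene, shape by replicate, and bars for group means. Scx stands at 51.6 to 141 in the control against 25.1 to 42.9 in the knockout libraries, and the knockout 2 square is low for most genes.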

How the data were processed

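Single-cell RNA libraries of callus cells were made with 10x 3′ chemistry, and the deposited values are raw UMI counts per gene and cell, which the authors made with Cell Ranger (6.1.1 for replicate 1 of both groups and 6.1.2 for the others, per the file headers) on GRCm38, per the labels. The notes also name Seurat. The filter by which the authors called cells is not given in the sources used here. Here, barcodes with at least 500 UMIs, 200 genes and at most 20% mitochondrial UMIs were kept, and the highest Scrublet scores were removed as doublets (0.8% per 1000 cells). Genes shared by all libraries were used, 2000 variable genes without the members and 30 components were integrated (Seurat 5.3.0), and cells were clustered by leidenalg 0.10.2 at resolution 0.8, then the 18002 stromal cells once more. Clusters were named from marker lists, with thresholds set after the data were seen. Members and lists were chosen with earlier results of these data known. Levels need at least 10 cells of a class in a library, and log2 levels add 1 UPM (UMIs per 1000000). Counts summed per class and library were tested with edgeR 4.0.16 (quasi-likelihood, low counts filtered, adjusted p under 0.05), with DESeq2 1.42.0 among the alternatives. The genes named are the 10 members, at most 4 genes of each list with the lowest adjusted p, and the 2 genes most like each member in profile. On simulated counts for 17915 genes, the genotype test in stromal-like cells recovered 0% of genes raised by 1 on the log2 scale, 32% of those raised by 2, 80% of those raised by 3 and 22% of those lowered by 2. Library totals limit precision, and intervals from replicates cover the spread of 3 libraries a group.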

Additional observations from a re-analysis of the deposited data

How the results depend on the processing

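In the comparisons of classes, Tnmd, Thbs4, Scx, Thbs1 and Thbs2 stayed called in tendon-like cells and Comp in cartilage-like cells under all 17 alternatives tried, which included leaving out each library. For tendon-like cells, leaving out knockout 2 only repeated the main fit, since that library was not in it. The count of members called in the osteoblast lineage, 10 in the report, was 6 with stricter cells and 6 without integration, where the cause was not tested. Over all genes, 4655 of 15407 were called in that lineage with stricter cells, against 3701 of 15297 in the report. The count over all genes without integration is not given here. The count of members called between genotype labels outside stromal-like and cartilage-like cells, 0 in the report, was 1 without a filter on low counts (Scx in the fibroblast classes, adjusted p = 0.04997), 1 without integration (Tnn in tendon-like cells) and 1 with the replicate block (Tnn in tendon-like cells, adjusted p = 0.00768), and 0 without each library in turn. The deviations of same-numbered control and knockout libraries correlated at 0.254, -0.0854 and -0.179, against -0.196 to 0.314 for the pairs of unlike number. Replicate 1 of both groups shared Cell Ranger 6.1.1, and replicate 3 of both groups a list of 55357 features. Whether the numbers stand for batches was not tested. The block called no member in stromal-like or cartilage-like cells. In tendon-like cells the block fit rested on replicates 1 and 3 alone, since knockout 2 was left out of that class. Signs turned only for members that were not called. Comp between genotype labels in stromal-like cells, 0.00 in the report, was -1.19 without replicate 3 of both groups, -0.00214 without removal of doublets, -0.0274 without integration and -0.62 with the replicate block. In the same cells Tnc was 0.51 without replicate 3 of both groups and Tnxb 0.27 without replicate 1 of both groups. Comp in cartilage-like cells was 0.00754 with stricter cells, 0.00634 at clustering resolution 0.5 and 0.24 without integration. Between classes, Thbs3 in tendon-like cells was -0.0656 without a filter on low counts and -0.16 without replicate 1 of both groups, and Thbs1 in cartilage-like cells -0.00499 without the filter, -0.11 without replicate 1 and -0.13 without replicate 3 of both groups. Without each library in turn, the genotype differences in stromal-like cells ran from -0.87 to 0.55 for Comp, -0.71 to 0.19 for Tnc, -1.74 to 0.26 for Tnxb and -1.45 to 0.12 for Tnmd, that of Comp in cartilage-like cells from -0.39 to 0.29, and the class differences from -0.22 to 0.21 for Thbs3 and -0.38 to 0.75 for Tnxb in tendon-like cells and from -0.10 to 0.30 for Thbs1 in cartilage-like cells. Tnxb in tendon-like cells became called without replicate 1 of both groups (1.10, adjusted p = 0.0209). Leaving out replicate 1 of both groups, or pooling the cells of all libraries, moved the highest class of Tnn to inflammatory fibroblast-like cells, so that 9 of 10 members kept their class. Stricter cells gave no osteoprogenitor-like class, and Tnc then has no level there. Leaving out single libraries, 8 to 10 members kept their highest class, with 8 without knockout 2. Counting few-UMI clusters as stromal-like and leaving out single libraries from the levels were chosen after seeing the data.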
